A study of Mus musculus with 6 samples.

Results

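The genes described here encode the MHC class I molecules of the mouse and the proteins that make and load their peptides. They were the 10 genes H2-K1, H2-D1, H2-T23, B2m, Tap1, Tap2, Tapbp, Psmb8, Psmb9 and Psmb10, taken by name. Of these, 9 were among the 18193 genes to which the platform annotation assigned at least 1 probe set alone, with 26 probe sets in all among the 45037 that were not array controls. H2-T23, a nonclassical class I heavy chain, had none and has no value here, and 5 further probe sets that named a member together with another gene were not used. Every one of the 26 probe sets was kept, because class I genes vary in sequence between mouse strains and a probe can bind one allele better than another. A total of 13 of them carried the suffix _x_at, which marks probes that may also match transcripts of other genes, and 4 the suffix _a_at, for several transcripts of one gene. Signal from related class I genes can therefore enter the values of H2-K1 and H2-D1.

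Haploid and diploid mouse embryonic stem (ES) cells, pluripotent cells of the early embryo, were compared by RNA hybridisation to Affymetrix GeneChip arrays, with 3 arrays a group. The haploid arrays were of the lines HAP1, at passage 24, and HAP2, at passage 21, both of F1 CBAxB6 strain, and of HTG1, at passage 11, whose strain label names a mixed transgenic background; the transgene was not described. The diploid arrays, labelled male, were of 129Sv strain (replicates 1 and 2) and 129 strain (replicate 3), with no line named. The medium for all cells was 2i, in which MEK and GSK3 are inhibited, and RNA was taken on day 2 after passaging. Strain and ploidy differed together and cannot be told apart, and the H2 haplotype of each line was not given. Passage was given only for the haploid arrays, and sex is stated here only for the diploid ones. Neither can be told apart from ploidy. The design calls the samples biological triplicates. The haploid arrays were of different lines, while nothing states that the diploid arrays came from separate lines. A p-value therefore measures the spread between arrays, which among the diploid ones may be technical.

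A class I molecule is a heavy chain, such as H2-K or H2-D, held by the light chain β2-microglobulin and by a short peptide. The peptide is cut from cytosolic proteins by the proteasome, pumped into the endoplasmic reticulum by the transporter of Tap1 and Tap2, and fitted into the heavy chain with the help of tapasin. Interferon-γ raises most of these genes, among them the catalytic proteasome subunits Psmb8, Psmb9 and Psmb10, which replace Psmb5, Psmb6 and Psmb7 in the immunoproteasome. ES cells are known for low surface class I. The heavy chain genes are highly polymorphic, and the CBA and B6 strains carry different H2 haplotypes.

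The deposited values are log2 signals summarised per probe set by RMA, and a difference of 1 is a 2-fold change. Array medians lay between 6.31 and 6.34, and a probe set is called dim under 4.80, the lower quartile of the array where it was lowest. A probe set passed when its limma p-value, Benjamini-Hochberg adjusted over all 45037 probe sets, was under 0.05. In such bulk RNA, fewer cells of a type and less RNA per cell cannot be told apart. Levels of different probe sets served only to mark dim ones, to pick bright ones and to form sums or means over genes or lists. They were not read as relative amounts of RNA.

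Most of the class I probe sets were lower in haploid cells, but few differences passed. The difference was negative at 19 of the 26 probe sets, with a median of -0.32 against -0.03 over all probe sets. Only 2 of the 26 (7.69%) passed, the single probe set of Psmb10 and a dim one of Psmb8, both lower; 11.3% of all probe sets passed, and 5.31% passed and were lower. At an unadjusted limma p under 0.05, 10 of the 26 were lower, beside 14.4% of all probe sets. The haploid and diploid values did not overlap at 12 of the 26, 11 lower and 1 higher in haploid cells, where 34.6% of all probe sets did not overlap. The probe sets of one gene share their transcript, so these counts do not add up independent genes: 7 of the 9 genes had a negative mean difference.

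**Figure D1:**
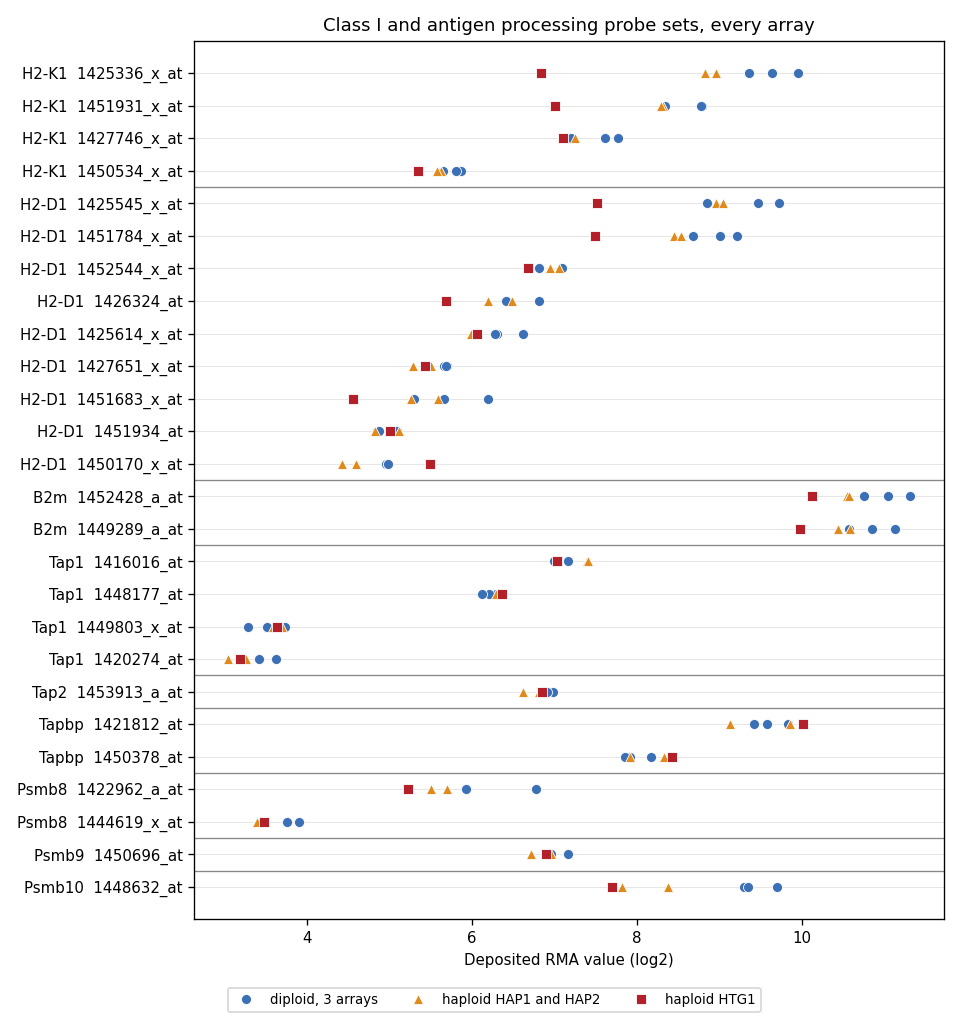
RMA value (log2, horizontal) of each of the 26 probe sets (vertical, grouped by gene) on the 3 diploid arrays, on HAP1 and HAP2, and on HTG1. HTG1 lies apart to the left at H2-K1 1425336_x_at, at 6.84 against 8.83 or more on the other 5 arrays, and all 3 haploid arrays lie left of the diploid ones at Psmb10.

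The promoters of the members were searched for letters that known regulators of class I genes bind, and those of H2-K1, H2-D1, B2m and Psmb10 are printed here. The sequences are the 250 bases before the annotated start, 5′ to 3′ on the gene's strand, from RefSeq on assembly GRCm38.p6. H2-K1, H2-D1 and Psmb10 are shown as genes that passed in a comparison of lines, and B2m as the light chain both heavy chains need. They are reference sequences, not the alleles of these lines. Capitals mark the match: GGGATTCCC, an NF-κB element, in both heavy chain genes and GAAANNGAA, an interferon regulatory factor element, in B2m. Psmb10 is in lower case throughout, with no match.
H2-K1 (chr17:34000334-34000583, minus strand): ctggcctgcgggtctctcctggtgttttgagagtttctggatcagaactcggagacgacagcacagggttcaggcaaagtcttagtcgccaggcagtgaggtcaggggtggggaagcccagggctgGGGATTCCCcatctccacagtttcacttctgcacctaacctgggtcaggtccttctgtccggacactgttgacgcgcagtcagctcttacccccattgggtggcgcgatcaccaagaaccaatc
H2-D1 (chr17:35262844-35263093, plus strand): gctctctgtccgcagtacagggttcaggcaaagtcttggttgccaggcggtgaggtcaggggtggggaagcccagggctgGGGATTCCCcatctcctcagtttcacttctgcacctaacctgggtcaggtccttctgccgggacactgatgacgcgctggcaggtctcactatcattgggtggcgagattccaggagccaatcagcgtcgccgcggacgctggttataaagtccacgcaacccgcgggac
B2m (chr2:122147437-122147686, plus strand): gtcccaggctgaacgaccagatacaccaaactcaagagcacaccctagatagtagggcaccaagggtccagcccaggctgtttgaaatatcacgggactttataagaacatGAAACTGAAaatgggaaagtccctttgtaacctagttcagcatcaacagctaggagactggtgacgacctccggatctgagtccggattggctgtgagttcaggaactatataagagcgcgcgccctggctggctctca
Psmb10 (chr8:105938393-105938642, minus strand): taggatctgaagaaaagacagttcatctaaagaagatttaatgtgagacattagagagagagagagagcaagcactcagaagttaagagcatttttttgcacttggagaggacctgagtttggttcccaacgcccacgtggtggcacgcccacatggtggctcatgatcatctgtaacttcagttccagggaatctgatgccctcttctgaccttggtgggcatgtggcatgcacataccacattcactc

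The heavy chain windows share their longest common run of 47 bases, which holds the NF-κB letters. Those letters, searched on both strands, stand in 0.301% of the 32851 promoter windows of the table, and among the members with a window only in H2-K1, 124 bases before the start, and H2-D1, 170 bases before it. A further annotated start of H2-K1 places them 110 bases before. The interferon regulatory factor letters stand in 7.13% of windows, among members in B2m (139 bases before the start) and H2-T23 (123 bases before it). TTCNNNGAA, the interferon-γ activated STAT element, stands in 7.02%, among members in Psmb8, 97 bases before the start. No member's window held more than 1 of the 3 motifs as spelled here, so they did not overlap there. Tap2 was not searched. A match is only letters in a window, and the arrays carry no measure of binding. Each motif was searched only as spelled, so a window without a match, also that of a heavy chain gene, can hold another spelling.

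H2-K1, whose product shows peptides to cytotoxic T cells, was lowest in HTG1 by its brightest probe sets. Probe set 1425336_x_at read 9.36, 9.95 and 9.64 on diploid arrays 1 to 3, 8.83 in HAP1, 8.96 in HAP2 and 6.84 in HTG1. All haploid arrays lay under all diploid ones, and HTG1 lay far under HAP1 and HAP2. The haploid mean was lower by 1.44 ± 0.53 (moderated SE, 3 against 3 arrays), a 2.71-fold difference that did not pass (limma adjusted p = 0.132). Probe set 1451931_x_at read 8.34, 8.79 and 8.77 in diploid cells, 8.32 in HAP1, 8.30 in HAP2 and 7.01 in HTG1. HAP1 and HAP2 were there just under the lowest diploid array, and HTG1 again stood apart (haploid minus diploid -0.76, limma adjusted p = 0.209). The other H2-K1 probe sets, 1427746_x_at and 1450534_x_at, differed by -0.37 and -0.26 (limma adjusted p = 0.173 and 0.191). On 1427746_x_at HTG1, at 7.11, was level with HAP2, at 7.12, so the low value of HTG1 was not seen by every H2-K1 probe set.

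H2-D1, the other classical heavy chain gene measured, was likewise lowest in HTG1 by its brightest probe sets. Probe set 1425545_x_at read 8.85, 9.73 and 9.47 in diploid cells, 8.96 in HAP1, 9.05 in HAP2 and 7.51 in HTG1. HAP1 and HAP2 lay within the diploid range and HTG1 below it (haploid minus diploid -0.84, limma adjusted p = 0.247). Probe set 1451784_x_at read 8.68, 9.22 and 9.01 in diploid cells, 8.45 in HAP1, 8.53 in HAP2 and 7.49 in HTG1. Here the groups did not overlap, and the difference was -0.81 ± 0.29 (limma adjusted p = 0.116). Of the 9 H2-D1 probe sets 7 had a negative difference and 0 passed in limma, 3 of them with an unadjusted p under 0.05. The nearest to the threshold was 1425614_x_at, at -0.38 (limma adjusted p = 0.082). Of the rest, 1426324_at differed by -0.43, 1427651_x_at by -0.28 and 1451683_x_at by -0.58, with limma adjusted p of 0.241, 0.112 and 0.270. On 1426324_at and 1451683_x_at HTG1 was again the lowest array, at 5.69 and 4.56.

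The H2-D1 probe sets did not move together. Probe set 1450170_x_at, of low signal, read 4.96, 4.99 and 4.98 in diploid cells, 4.59 in HAP1, 4.42 in HAP2 and 5.49 in HTG1. HTG1 was the highest array there and HAP1 and HAP2 the lowest. HTG1 exceeded their mean by 0.98 ± 0.15 (limma adjusted p = 0.097). At 1452544_x_at and 1451934_at the haploid mean was within 0.05 of the diploid one (0.03 and 0.04). Whether alleles of the lines bind these probes unequally was not tested.

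B2m, the light chain that every class I heavy chain needs, was read by a pair of bright probe sets that gave a like picture. Probe set 1452428_a_at read 10.76, 11.31 and 11.05 in diploid cells, 10.55 in HAP1, 10.57 in HAP2 and 10.13 in HTG1. All haploid arrays lay under the diploid ones and HTG1 was the lowest. The difference, -0.62 ± 0.18, did not pass (1.54-fold, limma adjusted p = 0.071); it passed with limma array weights (adjusted p = 0.042) and without diploid replicate 1 (adjusted p = 0.0498). Probe set 1449289_a_at read 10.58, 11.13 and 10.85 in diploid cells, 10.44 in HAP1, 10.58 in HAP2 and 9.98 in HTG1, so HAP2 met the lowest diploid array (difference -0.52, limma adjusted p = 0.142).

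None of the 7 probe sets of the transporter and tapasin passed in limma, 0 of them with an unadjusted p under 0.05. The brightest Tap1 probe set, 1416016_at, read 7.03, 7.17 and 7.001 in diploid cells, 7.40 in HAP1, 7.41 in HAP2 and 7.03 in HTG1. HAP1 and HAP2 lay above every diploid array and HTG1 within their range (haploid minus diploid 0.21, limma adjusted p = 0.333). A further Tap1 probe set, 1448177_at, was the member whose haploid values all lay higher, by 0.13 (limma adjusted p = 0.385), and the remaining Tap1 probe sets, 1449803_x_at (0.12) and 1420274_at (-0.26), were dim. Tap2, the other chain of the transporter, ran from 6.88 to 6.99 in diploid and from 6.62 to 6.86 in haploid cells, a difference of -0.16 (limma adjusted p = 0.349). Tapbp, which encodes tapasin, the chaperone that bridges the transporter and the heavy chain, read 9.83, 9.58 and 9.42 in diploid cells on 1421812_at, and 9.13 in HAP1, 9.86 in HAP2 and 10.02 in HTG1. The haploid arrays bracketed the diploid ones, with a difference of 0.06 (limma adjusted p = 0.895). The other Tapbp probe set, 1450378_at, differed by 0.24 (limma adjusted p = 0.359).

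Among the inducible proteasome subunits, Psmb10 was clearly lower in haploid cells. It read 9.71, 9.30 and 9.35 in diploid cells, 8.38 in HAP1, 7.82 in HAP2 and 7.70 in HTG1. Every haploid array lay well under every diploid one. The difference was -1.49 ± 0.20, 2.80-fold lower (limma adjusted p = 0.007), and it passed in all 15 alternative settings, at -1.69 to -1.22. Psmb10 lies on chromosome 8, where the median probe set was itself lower by 0.27 in haploid cells; with that shift subtracted the difference was -1.22 (limma adjusted p = 0.014). Of 1102 chromosome 8 probe sets above the median level, 11 fell further than Psmb10.

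The subunits encoded within the MHC region differed less. Psmb8 read 5.93, 6.78 and 5.94 in diploid cells on 1422962_a_at, and 5.51 in HAP1, 5.70 in HAP2 and 5.23 in HTG1. The haploid arrays were the 3 lowest, with a difference of -0.74 (limma adjusted p = 0.104). Its other probe set, 1444619_x_at, was dim on all arrays, at 3.76, 3.76 and 3.91 in diploid and 3.44, 3.40 and 3.49 in haploid cells; its difference of -0.37 passed (limma adjusted p = 0.046). That call was lost whenever 1 of the 6 arrays was left out (limma adjusted p = 0.067 to 0.141) and after a further quantile normalization (0.083). As the mean of both probe sets, Psmb8 was lower by 0.55 and passed (limma adjusted p = 0.035). Psmb9 ran from 6.95 to 7.17 in diploid and from 6.72 to 6.97 in haploid cells, and its difference was -0.16 (limma adjusted p = 0.401). Psmb9, Tap1, Psmb8 and Tap2 are neighbours in that order on chromosome 17.

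The constitutive subunits that the inducible ones replace were set beside them. Psmb7, the counterpart of Psmb10, read 11.49, 11.76 and 11.94 in diploid cells, 12.42 in HAP1, 12.52 in HAP2 and 12.45 in HTG1. It was higher on every haploid array, by 0.73 ± 0.13 (limma adjusted p = 0.017), so the members of this pair moved in opposite directions. Psmb6, the counterpart of Psmb9, was lower by 0.39 (limma adjusted p = 0.044); it lies on chromosome 11, and with that chromosome's median shift of -0.21 subtracted the difference was -0.18 (limma adjusted p = 0.263). Psmb5, the counterpart of Psmb8, differed by 0.18 (limma adjusted p = 0.272). Those 3 genes belong to a list of 8 constitutive and proteasome activator genes, of which 7 were measured, 1 was higher and 1 lower.

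**Figure D2:**
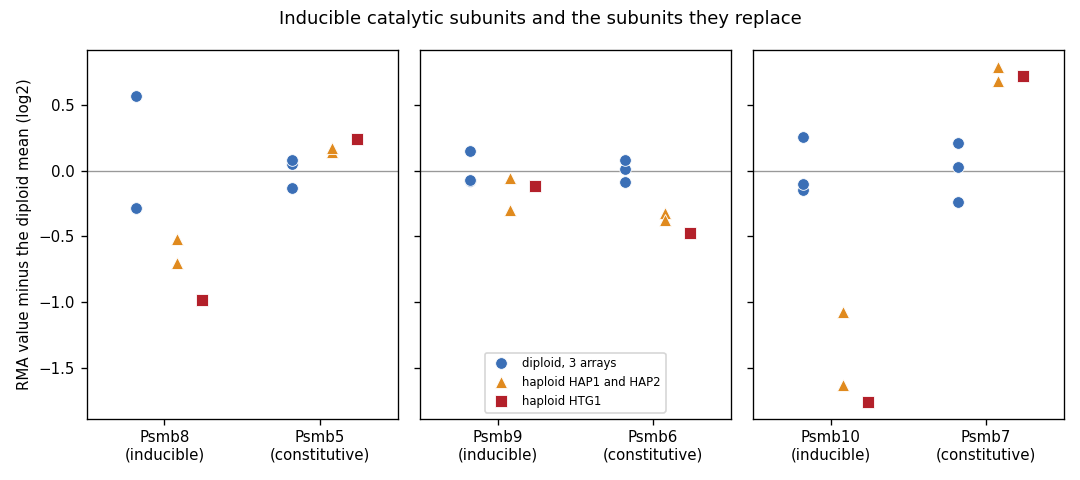
RMA value minus the diploid mean of the same probe set (log2, vertical) for each inducible subunit and the constitutive subunit it replaces, on each array. Psmb10 lies below 0 on all 3 haploid arrays while Psmb7 lies above; the other pairs differ less.

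The 3 haploid lines were then separated in 1 fit over all probe sets (diploid, HAP1 and HAP2, HTG1). HTG1 is a single array there, assumed to vary like the others. HTG1 against HAP1 and HAP2 gave 1 member probe set of 26 that passed, H2-K1 1425336_x_at, lower by 2.06 ± 0.25 (4.16-fold, limma adjusted p = 0.049); 0.242% of all probe sets passed and 0.0600% passed lower in HTG1. Over all probe sets 40 fell further than it. The call was lost in 6 of 12 alternative settings, among them without diploid replicate 3 (limma adjusted p = 0.193), HAP1 (0.114) or HAP2 (0.103). H2-K1 1451931_x_at differed by -1.30 (limma adjusted p = 0.128), and H2-D1 1425545_x_at and 1451784_x_at by -1.49 and -0.995 (0.257 and 0.278). HTG1 was the lowest of the 6 arrays at 13 of the 26 probe sets, and at 20.8% of all probe sets. It was the highest at 4 of the 26, and the share of all probe sets where it was highest was not counted. The probe sets of one gene share their transcript, so these counts are not of independent genes.

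Each set of haploid lines was next read against the same diploid arrays, which the contrasts therefore share. HAP1 and HAP2 gave 1 of 26 (3.85%), Psmb10, at -1.35 (limma adjusted p = 0.017), beside 7.97% of all probe sets. HTG1 gave 5 of 26 (19.2%), beside 5.01% of all probe sets, all lower. H2-K1 1425336_x_at was lower in HTG1 than in diploid cells by 2.81 ± 0.23, a 7.01-fold difference (limma adjusted p = 0.005). H2-K1 1451931_x_at differed by 3.08-fold (0.014), H2-D1 1425545_x_at by 3.57-fold (0.031), H2-D1 1451784_x_at by 2.78-fold (0.020) and Psmb10 by 3.38-fold (0.021). HAP1 and HAP2 differed from diploid cells at H2-K1 1425336_x_at by -0.75 (limma adjusted p = 0.061). The H2-K1 and H2-D1 probe sets named here all carry the suffix _x_at and may match each other's transcripts. They therefore do not count as separate results. As the mean of all probe sets of the gene, the difference of HTG1 from diploid cells was -1.32 for H2-K1 (limma adjusted p = 0.009) and -0.62 for H2-D1, which did not pass (0.074). H2-D1 1425545_x_at also did not pass without diploid replicate 2 (limma adjusted p = 0.054). Without diploid replicate 3, of the 5 only H2-K1 1425336_x_at passed in HTG1, and without replicate 3 or without HAP2 Psmb10 did not pass in HAP1 and HAP2.

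**Figure D3:**
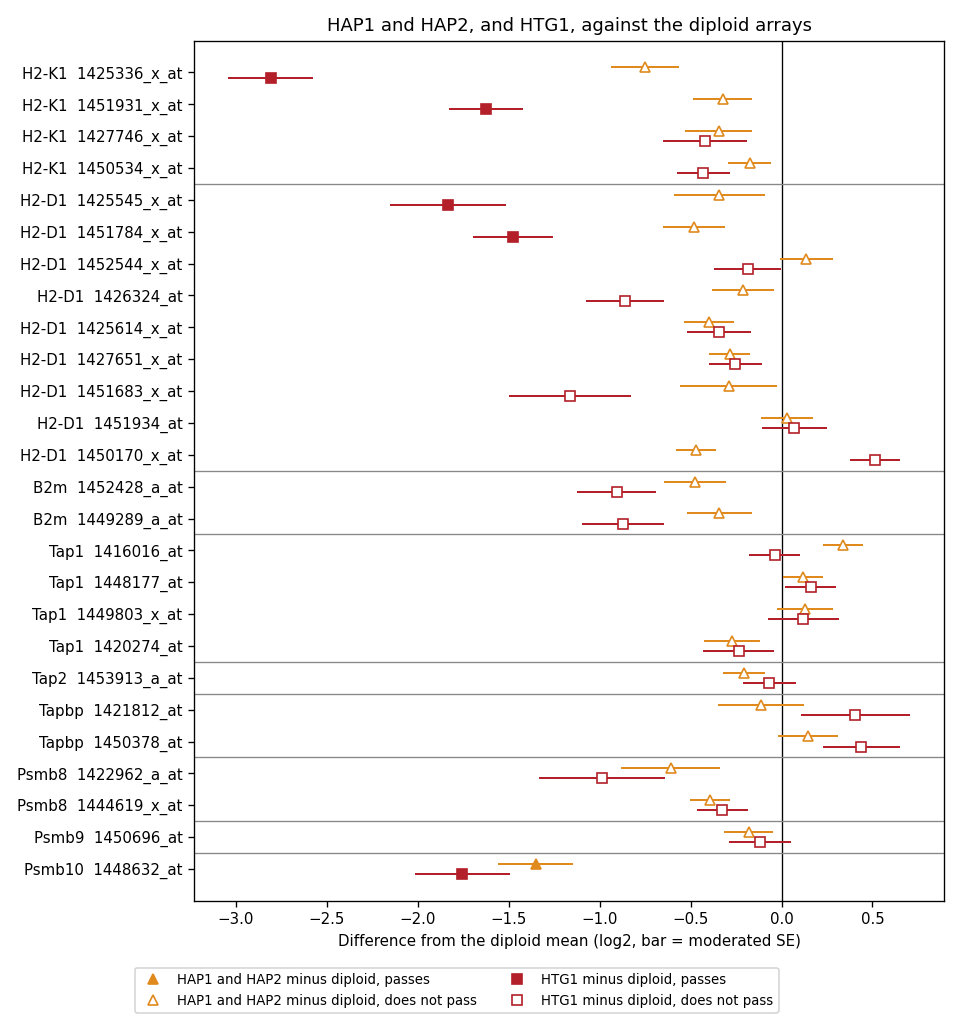
Difference from the diploid mean (log2, bars are moderated SE) of HAP1 with HAP2 (triangles) and of HTG1 (squares) at each of the 26 probe sets; filled symbols pass limma at an adjusted p of 0.05. The filled squares are H2-K1 at -2.81 and -1.62, H2-D1 at -1.83 and -1.48, and Psmb10 at -1.76, and the filled triangle is Psmb10 at -1.35.

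Other genes of the pathway, each by its brightest probe set, were counted from lists chosen by function. By that measure 7.17% of all genes passed higher and 6.32% passed lower in haploid cells, and the median over all genes was -0.03. Of 28 listed class I-like and further heavy chain genes 16 were measured; 0 passed higher and 1 lower, with a median of -0.12. The gene that passed was Cd1d1, which presents lipids, at -1.04 (limma adjusted p = 0.013). Of 15 measured genes for peptide loading, folding and trimming, 0 passed higher and 3 lower, with a median of -0.11. They were the cytosolic peptidases Blmh (-0.80), Thop1 (-0.44) and Npepps (-0.44), and Npepps, on chromosome 11, missed the threshold with the chromosome shift subtracted (limma adjusted p = 0.174). The chaperones Calr and Canx differed by -0.03 and -0.27 (limma adjusted p = 0.849 and 0.146).

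The regulators of class I transcription passed in both directions. Of 23 measured regulators 2 passed higher and 4 lower, with a median of -0.13. The higher ones were Relb, an NF-κB subunit, at 0.97 and Nfya, a subunit of the Y-box binding factor NF-Y, at 0.81. The lower ones were Rfxank, a subunit of the RFX complex that binds the X box of MHC promoters, at -1.01, the repressor Prdm1 at -0.91, Stat3 at -0.86 and Irf1, a factor that interferon-γ induces, at -0.79. Irf1 read 9.94, 9.78 and 10.09 in diploid cells, 9.10 in HAP1, 9.31 in HAP2 and 9.04 in HTG1, so the groups did not overlap (limma adjusted p = 0.011; with the chromosome 11 shift subtracted -0.58, 0.030). Nlrc5, the class I transactivator, differed by -0.14 (limma adjusted p = 0.554). Rfxank, on chromosome 8, missed the threshold with that chromosome's shift subtracted (0.067), and its probe sets ran from -1.01 to 0.32.

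In the interferon pathway too, genes passed in both directions. Of 10 receptor and kinase genes, 1 passed higher, Ifngr1, a chain of the interferon-γ receptor, at 0.36, and 2 lower, Ifnar2, a chain of the type I interferon receptor, at -0.60 and the feedback inhibitor Socs3 at -1.66. Of 18 measured interferon-stimulated genes 1 passed higher and 3 lower, with a median of -0.24. Igtp, an immunity-related GTPase, read 8.84, 8.90 and 8.98 in diploid cells, 7.18 in HAP1, 6.88 in HAP2 and 7.06 in HTG1. All 3 haploid lines were about equally low, at -1.87 ± 0.11 (3.65-fold, limma adjusted p = 0.001). The other GTPase Irgm1 differed by -0.95 and Ifit2 by -1.34, its haploid mean dim, while Xaf1 was higher by 1.12 on the brightest of its probe sets, which ran from -5.38 to 1.12.

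Genes that lie in the MHC region of chromosome 17 but serve other functions were counted beside the members. Of 70 measured, 10 passed higher and 1 lower, with a median of 0.01. The largest increases were Lsm2, an RNA-binding protein, at 1.18, Ppp1r11, a phosphatase inhibitor, at 1.09, Trim26 at 0.71 and Rpp21 at 0.67, and Mdc1, a DNA damage mediator, was lower, at -0.55. Of 10 measured class II genes 0 passed higher and 1 lower, the dim H2-Ob at -0.45. Of 5 measured ligands of NK cell and T cell receptors 0 passed higher and 1 lower, Cd274, at -0.46. In HTG1 against HAP1 and HAP2, limma called 0 of the 174 measured genes of these lists, 18 of which had an unadjusted p under 0.05. Over all genes by the same measure 0.319% were called and 8.94% had an unadjusted p under 0.05, so these counts were near the background.

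**Figure D4:**
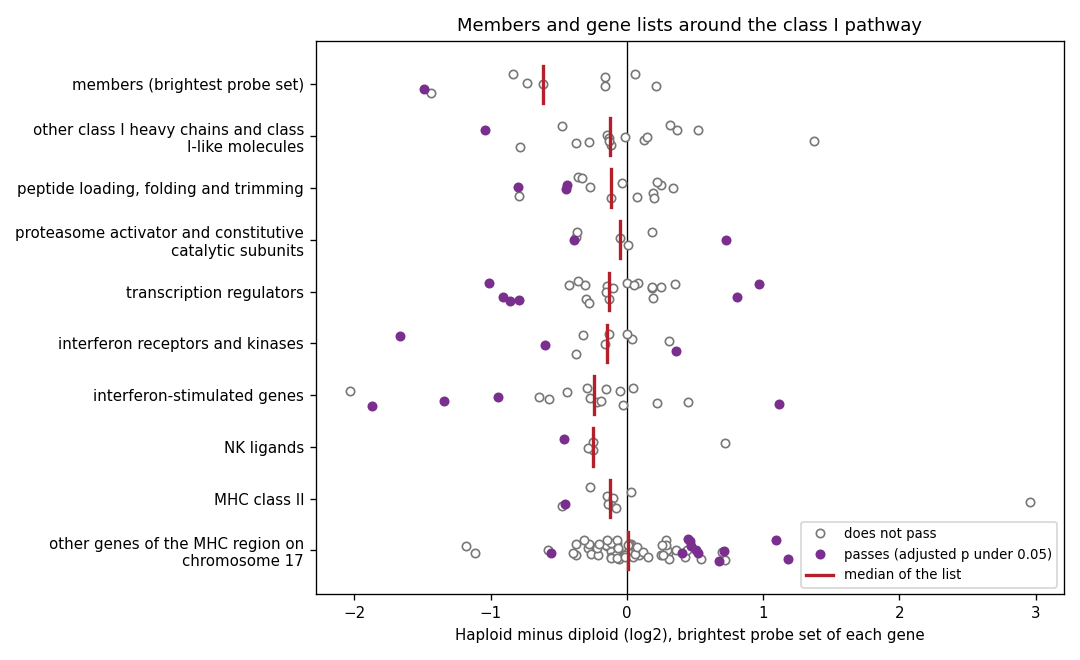
Haploid minus diploid difference (log2) of the brightest probe set of every measured gene, by list, with filled points for genes that pass limma and a bar at each list's median. The medians of the other lists lie between -0.25 and 0.01 and the members' median is -0.62, beside -0.03 over all genes; against the same diploid arrays the members' median was -0.34 for HAP1 with HAP2 and -0.91 for HTG1.

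The labelled cell type was checked against markers, and cell types that could add class I RNA were read beside it. All 10 ES cell markers were measured with mean levels of 13.0 to 13.3 per array, and Klf4, Nanog and Pou5f1 passed higher in haploid cells. Of 10 fibroblast markers, read because feeder cells are fibroblasts, 2 were dim in both groups, 0 passed higher and 1 lower, Col1a2, at -2.62 (limma adjusted p = 0.004); it read 9.34, 8.41 and 8.38 in diploid cells, 6.36 in HAP1, 5.73 in HAP2 and 6.17 in HTG1. The summed linear signal of the fibroblast list was 1740, 1002 and 999 on diploid arrays 1 to 3 and 507 to 627 on haploid arrays. Its part in the lower class I values was not tested. Between the haploid lines the fibroblast sum was 607 in HAP1, 507 in HAP2 and 627 in HTG1. The median difference of the fibroblast list was -0.63. Of 11 measured immune markers 1 passed higher (Laptm5, at 1.15) and 1 lower (Coro1a, at -0.84), and the defining leukocyte marker Ptprc lay between 4.36 and 5.36. Of 8 trophoblast markers 2 passed lower, Krt8 at -2.21 and Krt18 at -1.23, while the median difference of that list was -0.06. In the endoderm and mesoderm lists 0 of 8 and 0 of 5 measured markers passed in limma (1 and 0 at an unadjusted p under 0.05).

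The genes whose values ran most like those of B2m over the 6 arrays were Ttc21b, Myb and Cbarp (Pearson r = 0.983, 0.979 and 0.973), and most like Tap1 they were Dlgap4, Bbs7 and Pdlim4 (0.968, 0.954 and 0.951). They were taken from 2396 genes above the median level with a range of at least 1. The points share the group difference and the arrays' order within it, so the values describe these 6 arrays only.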

How the data were processed

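The values the authors deposited are on the log2 scale, and the submitters' processing notes name RMA. RMA in general gives all arrays the same distribution of values, so a change common to most genes cannot be seen. Software, version, genome build and whether the 6 arrays were processed together are not given in the sources used here. Of 45101 probe sets 64 controls were left out; the platform annotation gave 34945 of the rest 1 gene symbol, 932 several and 9160 none.

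Groups came from the labels. The test of haploid against diploid arrays (3 each) used R 4.3.3 and limma 3.58.1 (lmFit and eBayes, two-sided, no covariate or filter), with Benjamini-Hochberg adjustment over 45037 probe sets; a fit of 3 groups separated HTG1. The text names every member probe set, from each list up to 4 passing genes by size of change (the 2 brightest where none passed, which held for no pathway list), and the 3 genes most like B2m and Tap1. Irf1, Nfya, Nlrc5, Mdc1, Psmb5, Calr, Canx and the markers were named after their values were seen. The members and lists were chosen with earlier results of these data known. H2-Ke6 entered the class I list by its name only. Alternatives were renormalization, aligned medians, probe sets above the median level, the brightest probe set or the mean per gene, omission of _x_at, _s_at and _a_at probe sets, trend and robust eBayes, array weights, chromosome shifts subtracted, and omission of each array. After the data were examined, most were also run on each set of lines against diploid cells. The steps were tested on simulated data. Only 3 arrays a group limit the precision.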

Additional observations from a re-analysis of the deposited data

Results flagged for a closer look

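H2-K1 on probe set 1425336_x_at differed between haploid lines: HTG1 was lower than the mean of HAP1 and HAP2 by 2.06 on the log2 scale (difference -2.06, limma adjusted p = 0.049). It read 8.83 in HAP1, 8.96 in HAP2 and 6.84 in HTG1, beside 9.36 to 9.95 on the diploid arrays. Relative to the diploid mean, HTG1 stood at -2.81 and HAP1 with HAP2 at -0.75. HTG1 is 1 array of another strain background and passage, which cannot be told apart. The probe set was picked out because the contrast between the lines itself passed the test. That call was lost in 6 of 12 alternative settings. The other H2-K1 probe sets, 1451931_x_at, 1427746_x_at and 1450534_x_at, differed by -1.30, -0.07 and -0.25 in this contrast. The groups held 3 arrays, too few for a search for single outlying arrays.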

How the results depend on the processing

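Haploid against diploid, 5098 of 45037 probe sets passed. With the brightest probe set per gene 2707 of 18193 passed, and with each gene's mean 2552 of 18193. With array weights 6650 of 45037 passed, and with 1 array left out 1685 to 4192. Above the median level 22518 probe sets were tested. These totals differ, here and in the comparisons below, so a smaller count need not be a smaller share. The member count of 2 became 1 after quantile normalization. It was also 1 above the median level, with the brightest probe set and without _x_at, _s_at and _a_at probe sets. It was 3 with array weights and 1 to 2 with 1 array left out. The level, brightest and suffix filters kept 15, 9 and 9 of the 26 member probe sets. They left out the dim Psmb8 one, so its call was not retested there. The H2-K1 and H2-D1 probe sets that passed in HTG1 all carry _x_at, so the suffix filter left them untested below. With the brightest, H2-K1 1451931_x_at and H2-D1 1451784_x_at were not retested. HTG1 against HAP1 and HAP2, the 109 probe sets became 46 above the median level, 68 with the brightest, 63 with the mean, and 39 to 140 with 1 array left out. The 1 member became 0 in limma above the median level (6 at an unadjusted p under 0.05), with the mean (1), without _x_at, _s_at and _a_at (2) and with chromosome shifts subtracted (6), and 0 to 1 with 1 array left out. HAP1 and HAP2 against diploid, the member count of 1 became 2 after quantile normalization, with aligned medians and above the median level, and 0 to 3 with 1 array left out. HTG1 against diploid, 5 became 3 with the brightest, 2 with the mean, 1 without _x_at, _s_at and _a_at, and 1 to 7 with 1 array left out.

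Signs turned only for differences that passed in neither setting. Haploid against diploid, Tapbp 1421812_at gave -0.0011 after quantile normalization, -0.0041 with shifts subtracted and -0.115 to 0.329 with 1 array left out. H2-D1 1452544_x_at gave -0.0016, -0.034 and -0.057 to 0.141 likewise, H2-D1 1451934_at -0.020 with shifts subtracted and -0.021 to 0.121 with 1 array left out, and H2-D1 1450170_x_at -0.469 to 0.064. HTG1 against HAP1 and HAP2, Tap1 1449803_x_at gave 0.0029 after quantile normalization, 0.0018 with aligned medians, 0.011 with shifts subtracted and -0.061 to 0.048 with 1 array left out. In that contrast the left-out range was -0.102 to 0.181 for H2-D1 1451934_at, -0.072 to 0.141 for Tap1 1420274_at, -0.076 to 0.138 for H2-D1 1427651_x_at and -0.061 to 0.183 for Psmb9. The causes were not tested. No paired analysis was possible because the haploid titles give line names and not replicate numbers shared with the diploid arrays. The precision rests on 3 arrays a group, and 3 of the 26 member probe sets were dim.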

Other observations

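Some genes near the members differed strongly between arrays without passing. H2-Eb1, a class II β chain, read 7.33, 6.66 and 6.85 in diploid cells, 7.57 in HAP1, 11.23 in HAP2 and 10.90 in HTG1. It was high in HAP2 and HTG1 and near the diploid arrays in HAP1, so the lines parted otherwise than for H2-K1 (haploid minus diploid 2.96, limma adjusted p = 0.077). Its transactivator Ciita differed by -0.14 (limma adjusted p = 0.591). H2-Bl, a class I-like gene, read 7.30, 7.35 and 7.07 in diploid cells, 9.37 in HAP1, 7.60 in HAP2 and 8.88 in HTG1 (1.38, limma adjusted p = 0.074).

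Gbp2, an interferon-induced GTPase, read 4.64, 7.28 and 6.02 in diploid cells, 3.92 in HAP1, 3.99 in HAP2 and 3.92 in HTG1. The haploid values were dim and close together, while the diploid arrays spread widely, with replicate 2 the highest (difference -2.04, limma adjusted p = 0.065). Erap1, the peptidase that trims class I peptides in the endoplasmic reticulum, read 5.65, 6.53 and 6.12 in diploid cells, 5.13 in HAP1, 5.38 in HAP2 and 5.41 in HTG1 (-0.79, limma adjusted p = 0.061). Diploid replicate 2 was also the highest array for Psmb8 on 1422962_a_at, for both B2m probe sets and for H2-K1 1425336_x_at and H2-D1 1425545_x_at. Psme1, a subunit of the proteasome activator PA28, was 11.87, 11.47 and 11.53 in diploid cells, 11.29 in HAP1, 11.22 in HAP2 and 11.25 in HTG1 (-0.37, limma adjusted p = 0.105). These genes were chosen after their values were seen.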
